A study of Mus musculus with 12 samples.

Results

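The genes described here direct or mark the choice of the B-lymphoid fate, and they were picked because the ETV6-RUNX1 fusion is found in B-cell leukemia. They are Ikzf1, Ikzf2, Ikzf3, Ebf1, Pax5, Il7r, Ighm, Rag1, Dntt and Bach2, found by symbol in the deposited gene table, 1 entry each, so 10 of its 40481 genes. The table covers 12 libraries of mouse hematopoietic stem cells (HSCs), with 4 groups of 3 libraries. The HSCs were either WT or ETV6-RUNX1 (iE/R in the design text) and were sorted from fetal liver at E14.5 and from bone marrow of mice aged 8 weeks. All 4 groups, WT included, spent 3 days in ex vivo HSC expansion culture with doxycycline at 1 µg/mL, so no group shows cells without the drug or before culture. What drives the fusion allele, the strain, the sex and number of animals behind a library and the sorting gate are not given in the sources used here. Replicates are therefore separate samples of a group by their labels, and their spread may be partly technical.

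B-lymphoid fate is set up in steps. Ikaros-family zinc-finger factors (Ikzf1, Ikzf2 and Ikzf3, also called Ikaros, Helios and Aiolos) act early, with Ikzf3 more typical of later B cells. Interleukin-7 signals through the receptor chain encoded by Il7r, Ebf1 and then Pax5 fix the B-cell program, Rag1 and Dntt cut and diversify immunoglobulin gene segments, and Ighm encodes the constant part of the mu heavy chain. Bach2 encodes a repressor that favours lymphoid over myeloid genes in progenitors. ETV6-RUNX1 joins parts of the ETS-family repressor ETV6 and of the RUNX1 factor, and it is a common fusion of childhood B-cell precursor leukemia.

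Values are in CPM, read counts scaled to a common library total, with the SD over 3 libraries. Library totals were 32.3 to 64.5 M reads, and the floor of 3 reads below which a value is not told from 0 was 0.0465 to 0.0928 CPM; floors cover counting error only. Genes reaching 1 CPM in at least 3 of the 12 libraries (14271 genes) were tested with limma on log2(CPM + 1), and a call is a Benjamini-Hochberg adjusted p under 0.05 over all genes tested. Fold changes on this scale understate the change of low genes. Runx1 was 96.3 ± 9.17 CPM in WT and 170 ± 25.8 in ETV6-RUNX1 bone marrow, and 121 ± 13.0 and 227 ± 15.02 in fetal liver, with no overlap between genotypes in either source; the table does not separate fusion reads from those of the resident gene. All 10 genes of the HSC marker list, which includes Cd48 (18.7 to 215 CPM), were above the floor. Cd3e of T cells and Ncr1, Gzma, Klrd1 and Prf1 of NK cells were at or under it in every library. Other markers of these lists were not: Lck of T cells was at 15.8 to 24.9 CPM. Cd4 and Thy1 of T cells and Klrb1c of NK cells were also above the floor in all 12 libraries. Cd3d, Cd3g, Cd8a, Trac and Eomes were above it in 1 to 3 libraries. The HSC list summed to 1726 to 2091 CPM in WT and 2817 to 3385 in ETV6-RUNX1 fetal liver. In bone marrow it summed to 1704 to 2535 CPM in WT and 2194 to 2705 in ETV6-RUNX1, which overlapped. In fetal liver, summed monocyte markers (mostly Lyz2) were 201 to 267 CPM in WT and 628 to 817 in ETV6-RUNX1, granulocyte markers 218 to 293 and 32.4 to 47.8, and Y-linked genes 64.6 to 119 and 198 to 220. Mature B-cell markers, mostly Cd79b, summed to 51.3 to 53.0 CPM in WT and 60.6 to 83.8 in ETV6-RUNX1 fetal liver. In bone marrow, granulocyte markers summed to 152 to 362 CPM in WT and 101 to 127 in ETV6-RUNX1. Plasmacytoid dendritic cell markers, mostly Tcf4, were 117 to 126 and 201 to 247 CPM in fetal liver and 176 to 209 and 221 to 252 in bone marrow, with Klk1 at or under the floor throughout. All these sums separated by genotype in fetal liver, and the granulocyte and plasmacytoid dendritic cell sums did so in bone marrow too. In bone marrow the monocyte sums overlapped, at 224 to 293 CPM in WT and 243 to 407 in ETV6-RUNX1. So did the mature B-cell sums (42.2 to 57.6 and 51.2 to 63.7) and the Y-linked sums (229 to 288 and 268 to 389). The part of these differences in the results below was not tested. The Y-linked sum was 229 to 288 CPM in WT bone marrow, so it also moves with the source in WT.

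The 10 genes split sharply by level. Ikzf3, Pax5, Il7r, Rag1 and Dntt lay below 1 CPM in all 12 libraries, and Ebf1 in all but 1. Ikzf1, Ikzf2 and Bach2 were above 1 CPM in all 12, and Ighm in 7. Only these 4 passed the filter and entered the test. Per kilobase of annotated exon, group mean levels ran from 7.54 to 13.1 CPM for Ikzf1, from 5.51 to 18.7 for Ikzf2, from 0.123 to 12.7 for Ighm and from 0.331 to 0.850 for Bach2, while Ebf1 stayed between 0.00889 and 0.0907. Ikzf1 and Ikzf2 thus stood above the other members in every group on this scale, except that Ighm lay between them in ETV6-RUNX1 fetal liver.

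**Figure D1:**
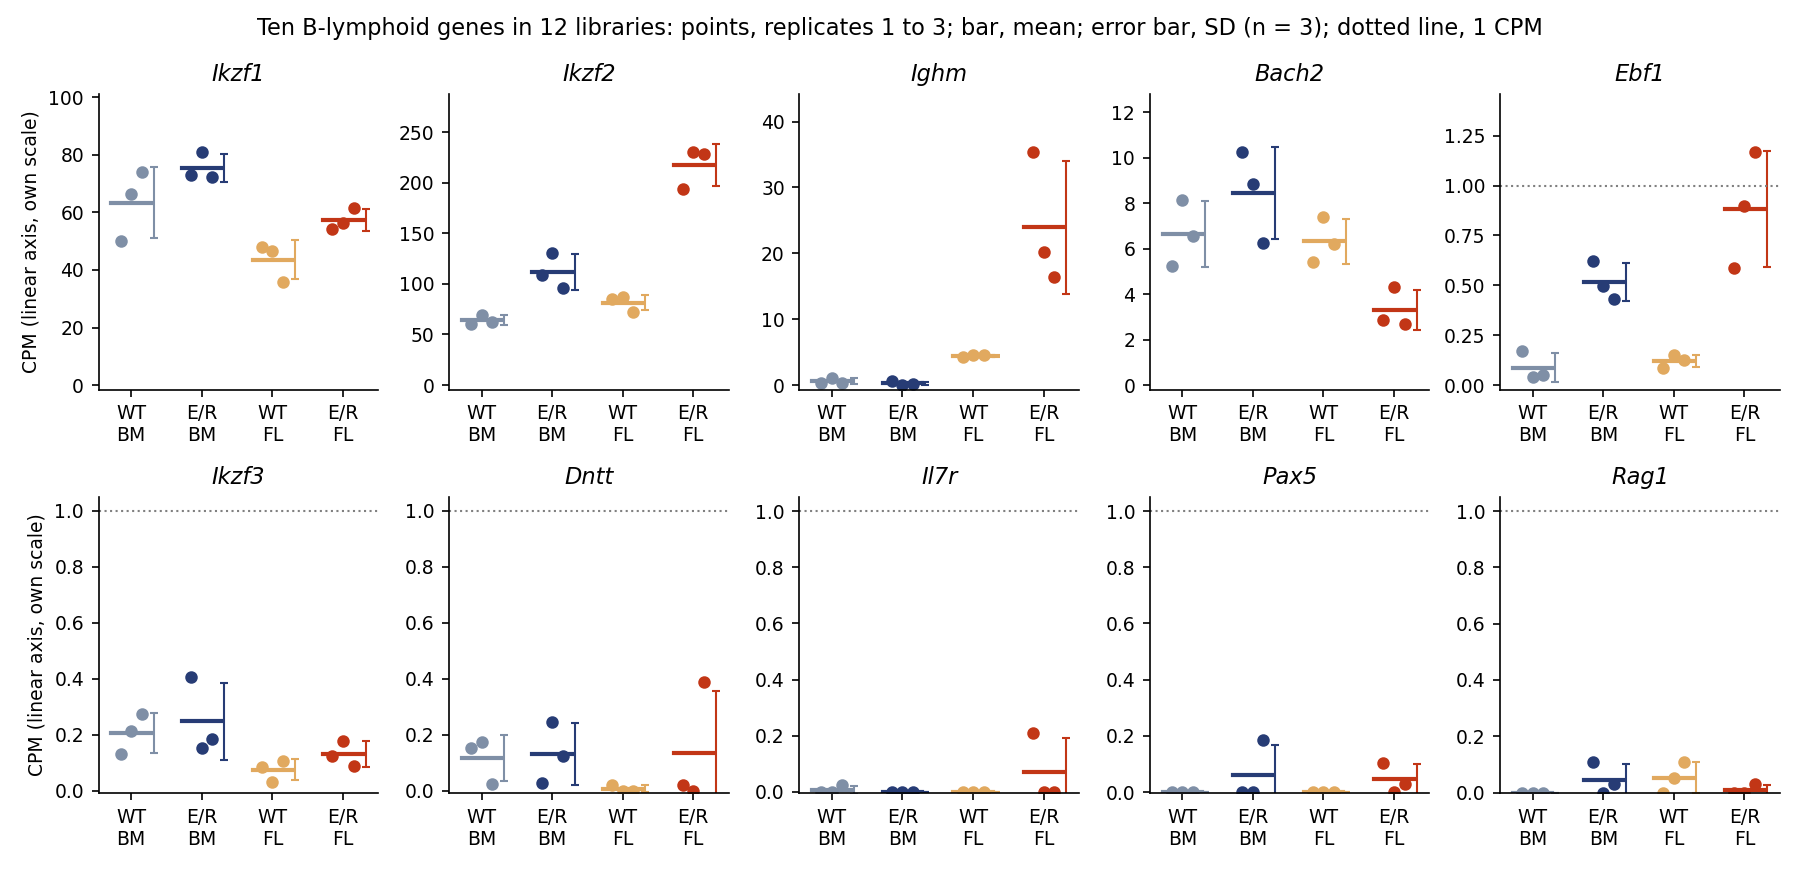
CPM of the 10 B-lymphoid genes in each library, on linear axes from 0 with a scale for each gene; BM is bone marrow, FL fetal liver and E/R ETV6-RUNX1, points are replicates 1 to 3, bars are means and error bars SD (n = 3). Ikzf2 is highest in ETV6-RUNX1 fetal liver (194 to 230 CPM), Ighm is at 4.30 CPM or more in fetal liver and 1.07 or less in bone marrow, and the 5 genes from Ikzf3 to Rag1 stay under the dotted line at 1 CPM.

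Of the 4 tested members, Ikzf2 and Ighm rose and Bach2 fell with ETV6-RUNX1 in fetal liver, while 6 of the 10 could not be tested there. Across all genes, limma called 43.1% in that comparison, 24.8% higher and 18.3% lower, so 3 called of 4 is to be read against a comparison in which a large share of all genes moved. In bone marrow only Ikzf2 was called, against 19.4% of all genes, 14.4% higher and 4.93% lower. The interaction, which asks whether the fetal liver effect differs from the bone marrow effect, was called for Ighm alone of the 4, against 9.19% of genes (5.56% higher, 3.62% lower). Between the sources in WT, 11.1% of genes were called (3.38% higher in fetal liver, 7.77% lower); of the members only Ighm was, which had entered the test through its fetal liver level. Both genotype contrasts use different libraries, but each shares its libraries with the interaction, and the WT libraries also enter the source contrast.

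**Figure D2:**
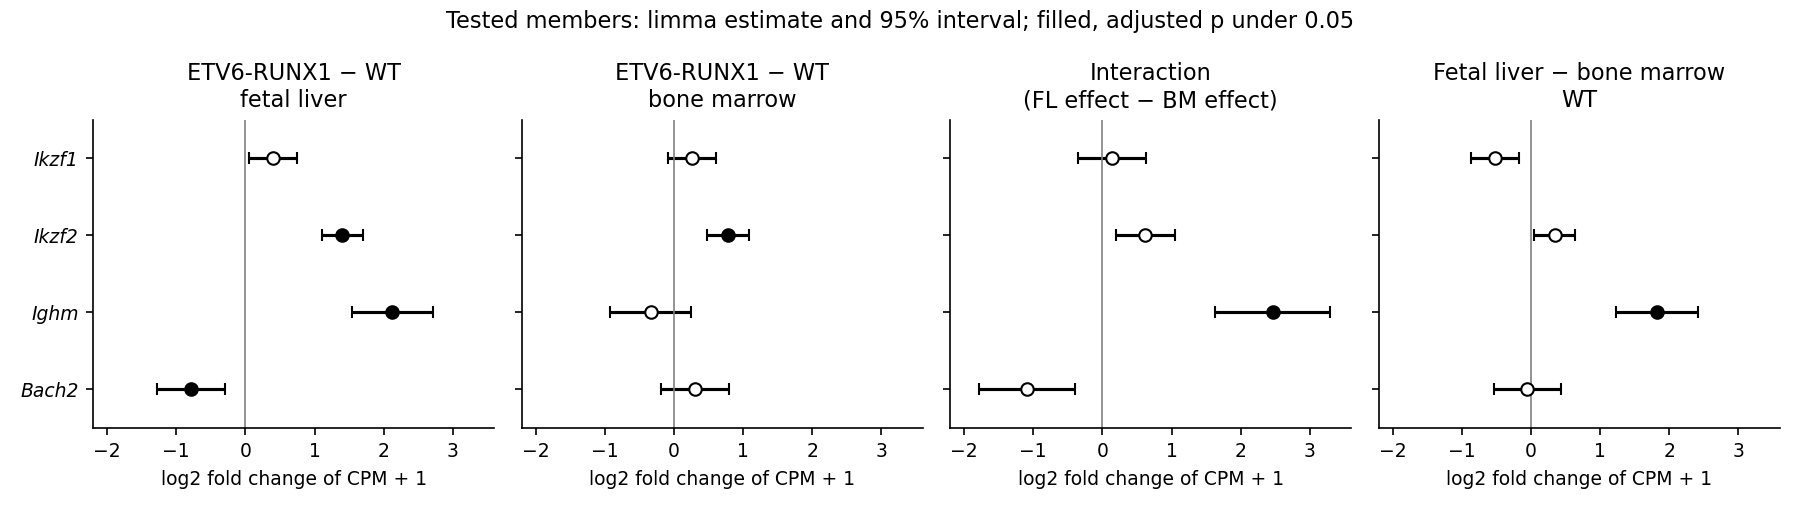
Limma log2 fold changes of CPM + 1 with 95% intervals for the 4 tested members in each comparison; filled points passed the adjusted threshold of 0.05. Ikzf2 is filled in both genotype comparisons, and Ighm in all but the bone marrow one.

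Ikzf2 (chromosome 1, 69531214 to 69687245 on GRCm38, minus strand) encodes Helios, an Ikaros-family factor expressed in HSCs. In bone marrow its level was 60.2, 69.7 and 62.1 CPM in WT and 109, 131 and 95.8 in ETV6-RUNX1. In fetal liver it was 84.7, 87.3 and 72.6 CPM in WT and 194, 230 and 228 in ETV6-RUNX1. No library of any of the 4 groups overlapped with another group, and the order was WT bone marrow, WT fetal liver, ETV6-RUNX1 bone marrow and ETV6-RUNX1 fetal liver. The share of all genes with such a separation was not counted. Mean CPM was 2.67 times higher with the fusion in fetal liver (limma log2 fold change 1.404 ± 0.14 SE, adjusted p = 3.46e-06) and 1.75 times higher in bone marrow (0.79 ± 0.14, adjusted p = 0.00234). Both calls held in all 24 alternatives tried. The larger rise in fetal liver did not pass the test of the difference itself (interaction 0.62 ± 0.20, limma adjusted p = 0.0658). That test did pass in 5 of its 23 alternatives, among them median-of-ratios scaling and DESeq2. The 1.27-fold difference between WT sources was not called either (0.34 ± 0.14, limma adjusted p = 0.141), although median-of-ratios scaling, edgeR and DESeq2 each called it. Gene models without a name lie within Ikzf2; the highest, Gm28112 on the same strand, reached 5.22 CPM, and Gm29114, which shares exon sequence on the other strand, 0.673 CPM.

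Ikzf1 (chromosome 11, 11685003 to 11772926, plus strand), which encodes Ikaros, moved less. Its level was 49.96, 66.4 and 73.9 CPM in WT bone marrow and 73.1, 81.1 and 72.4 in ETV6-RUNX1 bone marrow, and these groups overlapped. In fetal liver it was 48.2, 46.7 and 35.7 CPM in WT and 54.3, 56.3 and 61.7 in ETV6-RUNX1, without overlap. The fetal liver difference of 0.40 ± 0.16 on the log2 scale missed the threshold (limma adjusted p = 0.0590), as did the bone marrow difference of 0.26 ± 0.16 (adjusted p = 0.267) and the interaction of 0.14 (adjusted p = 0.745). The lower level in WT fetal liver than in WT bone marrow, -0.53 ± 0.16, also fell just short (limma adjusted p = 0.0512). The fetal liver difference was called in 3 of 24 alternatives and the source difference in 4 of 24, so neither side of the threshold is firm at 3 libraries a group. Unlike Ikzf2, the order of Ikzf1 levels put both bone marrow groups above WT fetal liver.

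Ikzf3 (chromosome 11, 98464902 to 98546031, minus strand), for Aiolos, was low in every group, between 0.0335 and 0.405 CPM, with at most 15 reads in a library. Its mean was 0.207 ± 0.0706 CPM in WT and 0.248 ± 0.137 in ETV6-RUNX1 bone marrow, and 0.0762 ± 0.0386 and 0.132 ± 0.0451 in fetal liver. Genotypes overlapped in both sources (exact permutation test, two-sided, p = 0.8 and 0.2), so no difference was detectable at this depth. With 3 libraries against 3, this exact permutation test cannot go below p = 0.1.

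Ighm (chromosome 12, 113418558 to 113422730, minus strand) is the gene for the mu heavy-chain constant region. In bone marrow it was at 0.286, 1.07 and 0.349 CPM in WT and 0.540, 0.0309 and 0.124 in ETV6-RUNX1. In fetal liver it was at 4.30, 4.52 and 4.50 CPM in WT and 35.4, 20.2 and 16.3 in ETV6-RUNX1, which came from 199 to 290 and from 545 to 1686 reads. Every fetal liver library lay above every bone marrow library, and every ETV6-RUNX1 fetal liver library above every WT one. The mean was 5.40 times higher with the fusion in fetal liver (limma log2 fold change 2.13 ± 0.28 SE, adjusted p = 3.61e-05) and 7.81 times higher in fetal liver than in bone marrow among WT cells (1.83 ± 0.28, adjusted p = 0.000548). Ighm passed the filter only through its fetal liver libraries and 1 bone marrow library, so the filter favoured a difference by source. The ETV6-RUNX1 fetal liver libraries alone were enough to pass it, so the filter did not fix the contrast between WT sources.

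In bone marrow the Ighm difference pointed the other way and was not called by limma (-0.34 ± 0.28, adjusted p = 0.412). On the recovered reads of all 29278 genes with reads, where edgeR called 10.6% of genes, it was called lower (log2 fold change -1.40, edgeR adjusted p = 0.00636). That rests on 25 reads in ETV6-RUNX1 and 84 in WT, with 55 of the latter in replicate 2, and the groups overlapped (exact permutation p = 0.4). The interaction was called, at 2.46 ± 0.39 (limma adjusted p = 0.00148), and stayed called in all 23 alternatives, with adjusted p up to 0.0477. The genotype effect on Ighm thus differed between the sources by a direct test.

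The other immunoglobulin genes, looked at after the Ighm values were seen, did not share its level. The 204 variable-region genes together gave 130 reads in WT and 76 in ETV6-RUNX1 bone marrow, and 126 and 110 in fetal liver, with overlapping ranges of summed CPM. The 18 diversity genes had no read in any library. The 9 joining genes had 28 reads in ETV6-RUNX1 fetal liver, 1 in WT fetal liver and 0 in bone marrow; Ighj1 held 13, 13 and 0 of these in the 3 ETV6-RUNX1 fetal liver libraries, so replicate 3 had none although Ighm was at 16.3 CPM there. The 8 constant-region genes other than Ighm had at most 10 reads in a library. Together they had 9 reads in WT and 1 in ETV6-RUNX1 bone marrow, and 8 and 22 in fetal liver. Their summed CPM in fetal liver was 0 to 0.0775 in WT and 0.105 to 0.210 in ETV6-RUNX1, the same direction as Ighm at a far lower level. Gene-level CPM does not show whether a read comes from a rearranged transcript.

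**Figure D3:**
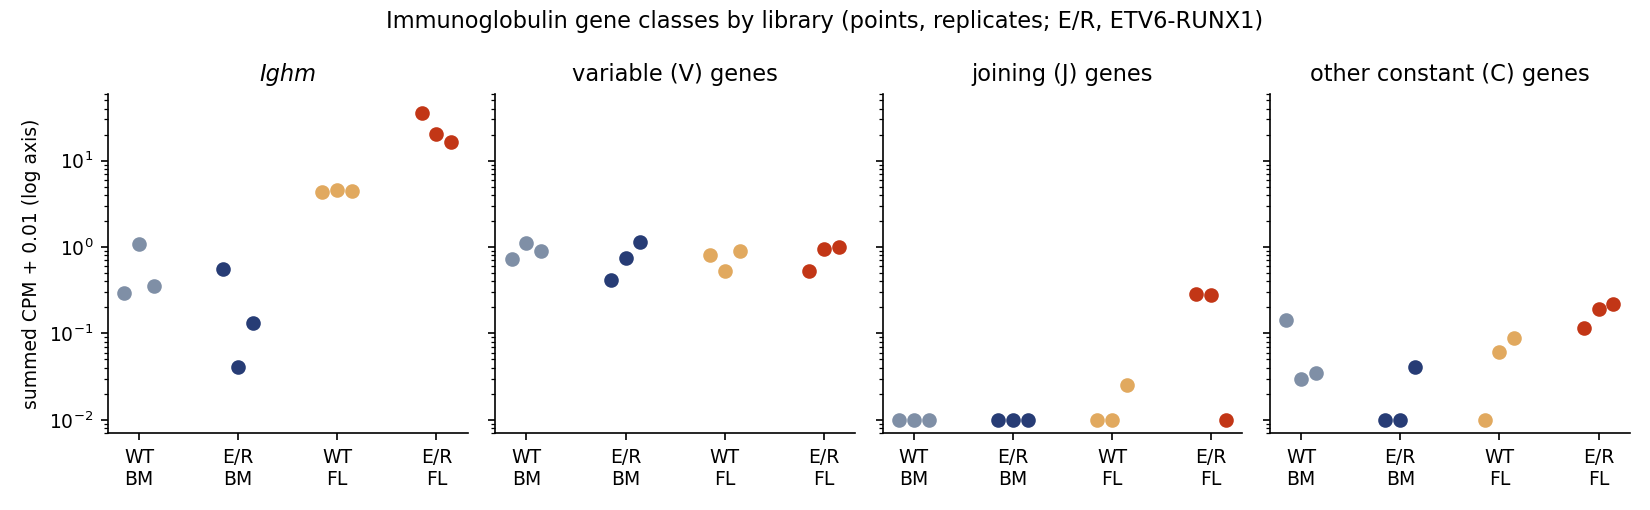
Summed CPM + 0.01 of Ighm, of the variable, joining and other constant immunoglobulin genes in each library, on a shared log axis (BM, bone marrow; FL, fetal liver; E/R, ETV6-RUNX1). Ighm separates fetal liver from bone marrow and the genotypes within fetal liver (4.30 to 4.52 against 16.3 to 35.4 CPM), while the variable genes stay near 1 CPM or below in all groups.

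Bach2 (chromosome 4, 32238804 to 32586108, plus strand) was the one tested member that fell. It was at 5.43, 7.38 and 6.19 CPM in WT fetal liver and at 2.86, 4.31 and 2.70 in ETV6-RUNX1 fetal liver. In bone marrow it was at 5.22, 8.14 and 6.55 CPM in WT and at 10.3, 8.84 and 6.25 in ETV6-RUNX1. The fetal liver groups did not overlap, and the mean with the fusion was 0.519 times that of WT (limma log2 fold change -0.78 ± 0.23 SE, adjusted p = 0.0131). That call was lost, at -0.68 (limma adjusted p = 0.0583), when replicate 2 of WT fetal liver was left out. The bone marrow groups overlapped, and their difference of 0.30 ± 0.23 was not called (limma adjusted p = 0.374); under quantile normalization it was -0.02. The interaction of -1.09 ± 0.32 fell just outside the threshold (limma adjusted p = 0.0503), and 6 of 23 alternatives called it. The WT sources did not separate (6.33 ± 0.984 CPM in fetal liver, 6.64 ± 1.46 in bone marrow). The antisense gene Bach2os, which shares exon sequence, was at 0.649 CPM or less.

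Ebf1 (chromosome 11, 44617317 to 45008091, plus strand), the factor that opens the B-cell program, was low in every library but ordered by genotype. It was at 0.171, 0.0390 and 0.0498 CPM in WT and 0.621, 0.495 and 0.433 in ETV6-RUNX1 bone marrow. In fetal liver it was at 0.0865, 0.151 and 0.124 CPM in WT and 0.588, 0.898 and 1.17 in ETV6-RUNX1. No WT library reached the lowest ETV6-RUNX1 library, over all 12. How many of all genes separate in this way was not counted. The ratio of means was 7.35 in fetal liver, from 117 against 21 reads, and 5.95 in bone marrow, from 53 against 13 reads (exact permutation p = 0.1 in each). In bone marrow, WT replicates 2 and 3 had 2 reads each, under the floor, so that ratio is imprecise. Leaving out a library moved the ratio to between 6.17 and 8.59 in fetal liver and between 4.67 and 11.6 in bone marrow, the last without WT bone marrow replicate 1.

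Ebf1 did not pass the filter, so its tests come from fits on all 29278 genes with reads. Limma on those genes called it in fetal liver (log2 fold change 0.74 ± 0.10, adjusted p = 0.000737, with 18.8% of genes called) and in bone marrow (0.48 ± 0.10, adjusted p = 0.0238, with 6.81% called). EdgeR on the recovered reads called it in fetal liver (2.73, adjusted p = 0.00998, with 21.9% called) but not in bone marrow (2.33, adjusted p = 0.0761). Whether the effect differed between sources was not called by either tool (limma interaction 0.26, adjusted p = 0.437; edgeR adjusted p = 1.00). In bulk RNA, a few cells with much Ebf1 and many cells with little cannot be told apart.

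Pax5 (chromosome 4, 44524757 to 44710487, minus strand), which acts downstream of Ebf1, was close to absent at this depth. It had 12 reads in all: 6 in ETV6-RUNX1 bone marrow replicate 3, 5 in ETV6-RUNX1 fetal liver replicate 1 and 1 in replicate 3. All 6 WT libraries had 0 reads, and so did 3 of the 6 ETV6-RUNX1 libraries. Il7r (chromosome 15, 9505788 to 9530176, minus strand), the interleukin-7 receptor alpha chain, had 11 reads, 10 of them in ETV6-RUNX1 fetal liver replicate 1 (0.210 CPM) and 1 in WT bone marrow replicate 3. The CPM of Ebf1, Pax5 and Il7r did not peak in the same library: Ebf1 was highest in ETV6-RUNX1 fetal liver replicate 3, which had 1 Pax5 and 0 Il7r reads.

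Rag1 (chromosome 2, 101638282 to 101649501, minus strand), a subunit of the recombinase, had 16 reads over 5 libraries, at most 7 in one (WT fetal liver replicate 3, 0.109 CPM). It shares exon sequence on the same strand with B230118H07Rik, which was at 25.0 to 46.0 CPM, so these few reads are uncertain. Rag2, its partner, was at 0.149 CPM or less. Dntt (chromosome 19, 41029275 to 41059525, plus strand), the terminal transferase that adds bases at junctions, was at 0.152, 0.175 and 0.0249 CPM in WT and 0.0270, 0.247 and 0.124 in ETV6-RUNX1 bone marrow. In fetal liver it had 1 read in all 3 WT libraries together, and 1, 0 and 13 reads in the ETV6-RUNX1 libraries, so a single library carried it. For none of Pax5, Il7r, Rag1 and Dntt did the genotypes separate in either source (exact permutation p from 0.4 to 1.0 over the 8 comparisons).

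RefSeq windows of 300 bases on GRCm38.p6, from 250 before to 50 after an annotated start, were held for 7 of the 10 members; Ikzf2, Ikzf3 and Ighm had no entry. They were searched on both strands for TGTGGT, the core of the RUNX motif (in 16.8% of all 32851 windows), for CCGGAA, an ETS core (14.9%), for GAAA, any 2 bases and GAAA, an interferon-response type element (3.44%), and for TCCC, any 2 bases and GGGA, an EBF-type palindrome (0.904%). The windows below are shown because they hold a RUNX core in genes that were low throughout, or, for Bach2, an ETS core. They read 5′ to 3′ on the strand of the gene, with the matches in capitals.
Ebf1, chr11:44617850-44618149, plus strand: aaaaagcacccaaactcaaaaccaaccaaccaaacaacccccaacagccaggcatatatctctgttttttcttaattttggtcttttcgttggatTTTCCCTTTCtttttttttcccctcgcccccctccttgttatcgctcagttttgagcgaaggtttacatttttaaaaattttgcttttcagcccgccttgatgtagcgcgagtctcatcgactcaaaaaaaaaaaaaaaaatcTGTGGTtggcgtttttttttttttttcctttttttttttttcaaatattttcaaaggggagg
Il7r, chr15:9529827-9530126, minus strand: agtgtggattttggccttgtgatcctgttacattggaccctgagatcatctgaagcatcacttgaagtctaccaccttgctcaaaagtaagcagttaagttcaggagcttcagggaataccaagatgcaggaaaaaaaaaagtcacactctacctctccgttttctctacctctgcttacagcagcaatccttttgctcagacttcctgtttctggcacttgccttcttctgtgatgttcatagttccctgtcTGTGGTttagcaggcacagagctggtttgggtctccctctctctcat
Rag1, chr2:101649483-101649782, minus strand: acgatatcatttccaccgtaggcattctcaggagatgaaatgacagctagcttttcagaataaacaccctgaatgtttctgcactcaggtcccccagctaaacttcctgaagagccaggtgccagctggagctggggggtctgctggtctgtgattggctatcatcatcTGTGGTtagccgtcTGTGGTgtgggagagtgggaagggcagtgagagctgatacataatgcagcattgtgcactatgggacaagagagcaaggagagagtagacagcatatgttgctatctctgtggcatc
Bach2, chr4:32417185-32417484, plus strand: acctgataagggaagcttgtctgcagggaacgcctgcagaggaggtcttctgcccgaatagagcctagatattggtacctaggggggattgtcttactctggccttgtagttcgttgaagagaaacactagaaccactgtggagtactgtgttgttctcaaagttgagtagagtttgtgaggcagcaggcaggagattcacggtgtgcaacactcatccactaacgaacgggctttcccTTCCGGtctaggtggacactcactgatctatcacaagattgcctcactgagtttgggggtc
The first base of the RUNX core lay at -12 from the start in Ebf1, at 3 in Il7r and at -81 and -67 in Rag1. The second match in the Ebf1 window, at -155, is the interferon-response type element on the opposite strand, and the ETS core of Bach2, at -11, is also on the opposite strand. The EBF-type palindrome was in none of the 9 member windows, and the Ikzf1, Pax5 and Dntt windows held neither TGTGGT nor CCGGAA. Other ETS sequences were not searched for in any window. A match describes letters only, and no binding was measured here.

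Genes that act with the members were followed as lists chosen with earlier results of these data known. Of 15 pre-B and B-cell receptor genes in the table, 3 passed the filter. The signalling chain Cd79b was at 38.2 to 79.8 CPM and was not called in any of the 4 comparisons. Its partner Cd79a stayed at 0.287 CPM or less, the surrogate light-chain gene Vpreb1 at 0.297 to 1.53 and Igll1 at 0.0762 or less. Igkc and Blk were at or under the floor in every library. Fcrla, an Fc receptor-like gene of B cells, was at 1.60, 2.17 and 2.19 CPM in ETV6-RUNX1 fetal liver and at 0.295 CPM or less in the other 9 libraries. It was called in fetal liver (limma 1.42 ± 0.18, adjusted p = 2.38e-05), but it passed the filter only through that group. Cd72, an inhibitory coreceptor, was at 17.3 to 22.6 CPM in bone marrow and at 0.215 to 1.88 in fetal liver; it was lower in WT fetal liver than in WT bone marrow (-3.10 ± 0.25, limma adjusted p = 2.21e-06). Its fetal liver level was 1.88, 1.20 and 1.32 CPM in WT and 1.41, 0.215 and 0.240 in ETV6-RUNX1. Those groups overlapped (exact permutation p = 0.3), although limma called the difference (-0.67 ± 0.25, adjusted p = 0.0397); the list had 1 fetal liver call in place of 2 in 8 of 24 alternatives.

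Of 15 tested lymphoid priming regulators, 7 rose and 1 fell with the fusion in fetal liver, where 24.8% of all genes rose and 18.3% fell, and the median log2 fold change was 0.68 against 0.08 over all genes. In bone marrow 4 rose and 1 fell, where 14.4% of all genes rose and 4.93% fell, and the median was 0.36 against 0.13. Flt3, the receptor that marks lymphoid-primed progenitors, was at 30.4, 22.9 and 15.04 CPM in WT fetal liver and at 4.85, 8.42 and 4.71 with the fusion. It was the 1 that fell in fetal liver (-1.75 ± 0.38, limma adjusted p = 0.00193). In bone marrow Flt3 went from 5.74 ± 2.74 to 2.31 ± 1.31 CPM and was not called (-1.01 ± 0.38, limma adjusted p = 0.0743). Ets1 (1.30 ± 0.23), Notch1 (1.37 ± 0.26), Spi1 (1.38 ± 0.27) and Irf8 (1.36 ± 0.29) rose in fetal liver, at limma adjusted p between 0.000448 and 0.00176. Spi1 and Irf8 also serve the myeloid lineage. In the same fetal liver libraries the monocyte marker sum was higher and the granulocyte marker sum lower, and a link of either sum to Spi1 or Irf8 was not tested. Tcf3, the E2A factor that acts before Ebf1, was not called in fetal liver (-0.07 ± 0.22, limma adjusted p = 0.833) and rose in bone marrow from 17.1 ± 2.45 to 30.4 ± 4.28 CPM (0.79 ± 0.22, adjusted p = 0.0234). Spi1 (1.37 ± 0.27) and Bcl11a (0.84 ± 0.21) also rose in bone marrow, and Mef2c fell (-0.67 ± 0.18, limma adjusted p = 0.0194). Under median-of-ratios scaling, quantile normalization and edgeR the bone marrow count was 2 higher and 2 lower, and leaving out libraries gave 2 (without WT replicate 2 or ETV6-RUNX1 replicate 1) to 6 calls. Between WT sources, Satb1, Flt3, Irf8 and Gfi1 were higher in fetal liver and Ikzf4, another Ikaros-family gene, lower. Of all genes 3.38% were called higher there and 7.77% lower.

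Most signalling partners of the interleukin-7 receptor were expressed where Il7r was near 0. All 11 genes of the list were tested. In fetal liver 6 rose and none fell, where 24.8% of all genes rose, and the median was 0.88 against 0.08 over all genes. In bone marrow 8 rose and none fell, where 14.4% of all genes rose, and the median was 0.80 against 0.13. Il2rg, the shared gamma chain, was at 81.7, 114 and 96.7 CPM in WT and 309, 207 and 346 in ETV6-RUNX1 fetal liver (1.53 ± 0.20, limma adjusted p = 4.12e-05). In bone marrow it was at 226, 185 and 150 CPM in WT and 307, 394 and 332 in ETV6-RUNX1 (0.89 ± 0.20, adjusted p = 0.00855). Neither pair of groups overlapped. In fetal liver the survival gene Mcl1 (1.04 ± 0.17), the transducer Stat5b (0.88 ± 0.19) and the kinase Jak1 (0.98 ± 0.23) rose as well. In bone marrow the kinase Jak3 (1.63 ± 0.31, limma adjusted p = 0.00351), the receptor chain Crlf2 (2.00 ± 0.42, adjusted p = 0.00539) and the feedback inhibitor Socs1 (0.84 ± 0.19, adjusted p = 0.00880) rose, but Socs1 passed the filter only through ETV6-RUNX1 bone marrow. The interaction was called by limma for 0 of the 11, where 9.19% of all genes were called. EdgeR and DESeq2 on the same genes also called 0, and edgeR on all genes with reads called 3. An unadjusted limma p was under 0.05 for 4 of the 11. Under edgeR 5 rather than 8 rose in bone marrow, and under median-of-ratios scaling 6. Between WT sources 3 were lower in fetal liver (Bcl2, Il2rg and Stat5a) and none higher, where 7.77% of all genes were lower and 3.38% higher. The median was -0.46 against -0.07 over all genes. Il2rg, Jak1, Jak3 and the Stat5 genes also serve other cytokine receptors.

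Of 9 tested genes of V(D)J recombination and end joining, 2 rose and 3 fell in fetal liver, where 24.8% of all genes rose and 18.3% fell, and the median was -0.26 against 0.08. In bone marrow 2 fell, where 4.93% of all genes fell, and the median was -0.25 against 0.13. Xrcc6 and Xrcc5, the Ku proteins that hold broken ends, went from 119 ± 5.83 to 65.7 ± 10.7 CPM (-0.86 ± 0.15, limma adjusted p = 0.000360) and from 38.5 ± 3.65 to 23.6 ± 3.82 (-0.69 ± 0.16, adjusted p = 0.00264) in fetal liver. Polm, a polymerase related to Dntt, also fell (-1.13 ± 0.28, limma adjusted p = 0.00510), while Xrcc4, the ligase cofactor, rose (0.67 ± 0.16, adjusted p = 0.00353), but not under quantile normalization, where 0 rose and 4 fell. In bone marrow Xrcc6 (-0.59 ± 0.15, limma adjusted p = 0.0147) and Polm (-1.06 ± 0.28, adjusted p = 0.0182) fell. Without ETV6-RUNX1 bone marrow replicate 2 neither was called. Polm was low, at 3.64 to 3.98 CPM in WT and 0.467 to 1.89 in ETV6-RUNX1 fetal liver. In bone marrow it was at 1.56 to 2.44 CPM in WT and 0 to 1.03 in ETV6-RUNX1. Either WT group alone was enough for Polm to pass the filter. End joining is not specific to V(D)J recombination, and the V(D)J-specific Rag1, Rag2 and Dntt were all near 0.

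**Figure D4:**
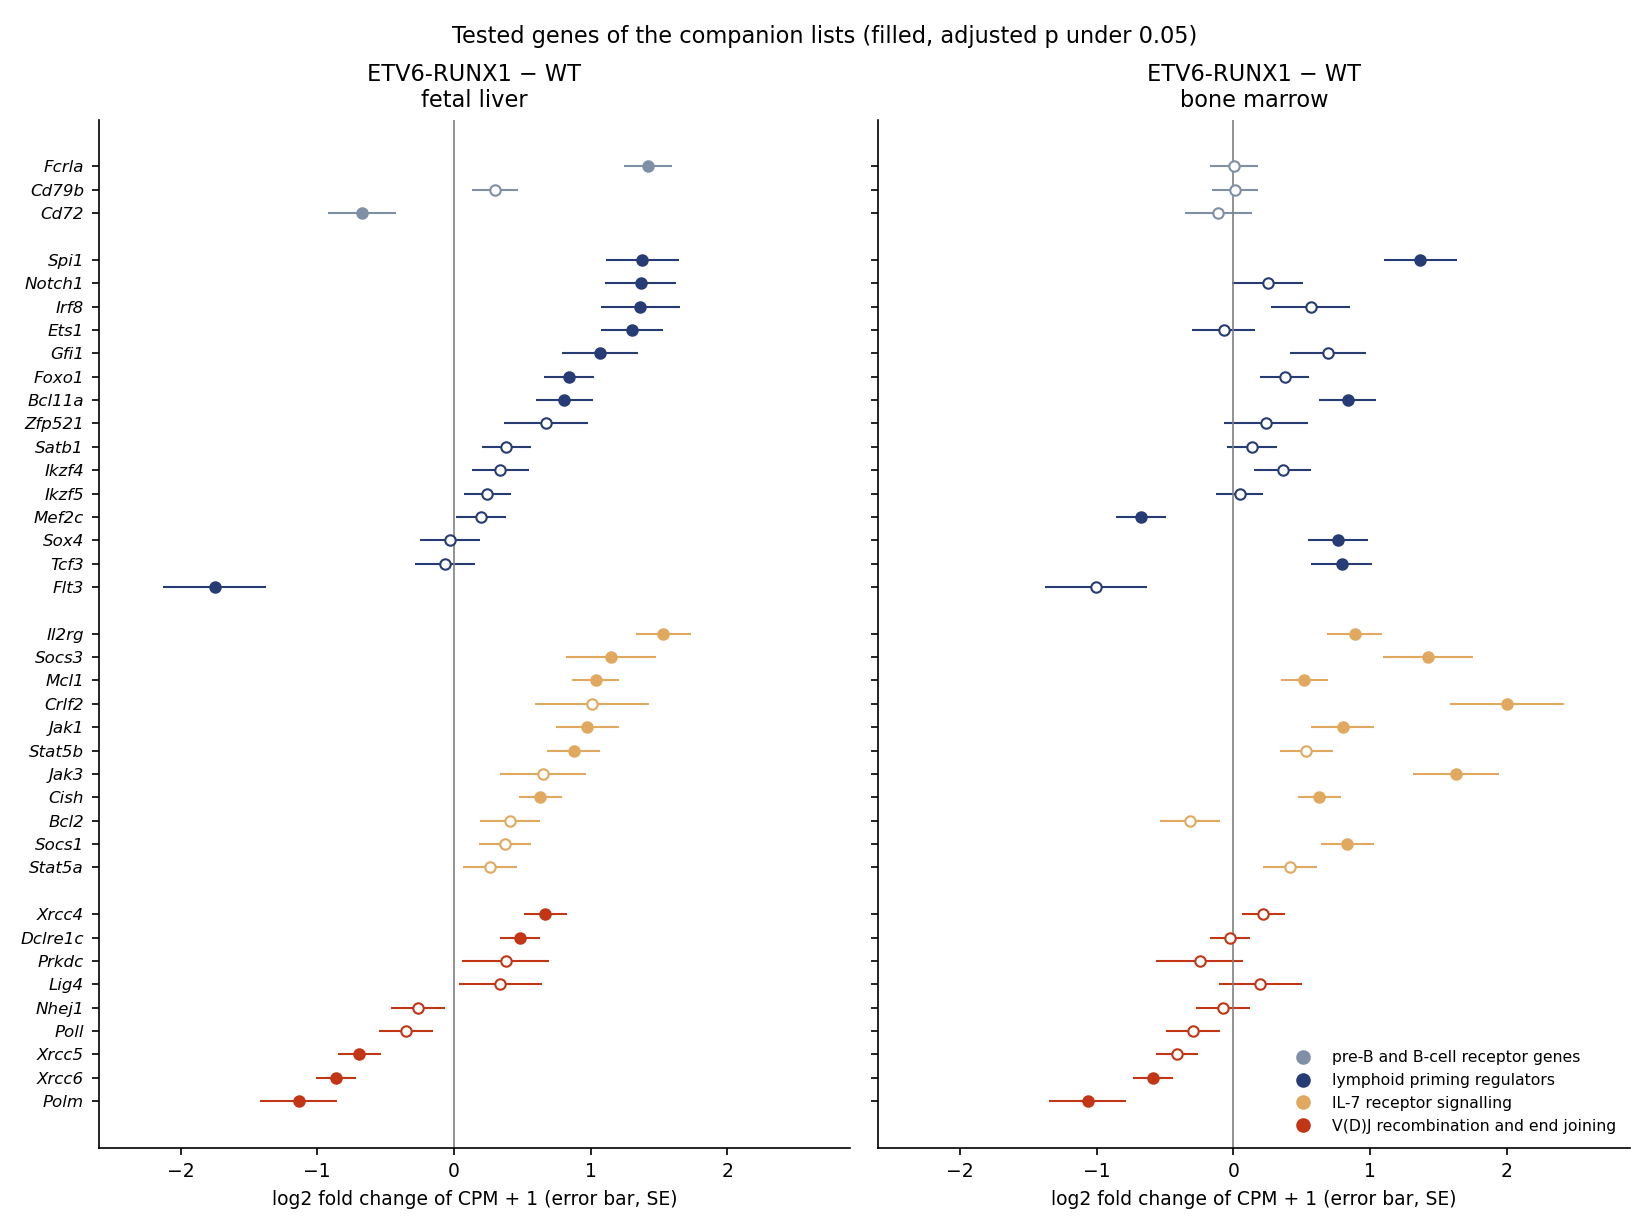
Limma log2 fold changes of CPM + 1 (error bars SE) for the tested genes of the 4 companion lists, ETV6-RUNX1 against WT in fetal liver (left) and bone marrow (right); filled points passed the adjusted threshold of 0.05. Most interleukin-7 signalling genes lie right of 0 on both sides, Flt3 is the leftmost point in fetal liver (-1.75), and the Ku genes Xrcc5 and Xrcc6 lie left of 0.

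Over the 12 libraries, the named genes whose log2(CPM + 1) followed each tested member most closely were found by Pearson's r, which is given as a description since all libraries share the group structure. Ikzf2 was followed by Pik3ap1 (r = 0.985), Col4a1 (0.984) and Prkcq (0.984). Pik3ap1, an adaptor known from B-cell receptor signalling, was at 9.60 ± 4.24, 30.2 ± 9.90, 14.1 ± 3.05 and 142 ± 17.2 CPM in WT bone marrow, ETV6-RUNX1 bone marrow, WT fetal liver and ETV6-RUNX1 fetal liver, the same order as Ikzf2. Ighm was followed by Rab39 (0.985), Lrrc32 (0.978) and Asprv1 (0.975). Lrrc32 was at 0.725 ± 0.141 and 0.739 ± 0.573 CPM in WT and ETV6-RUNX1 bone marrow and at 5.65 ± 0.567 and 30.9 ± 3.87 in fetal liver, so this gene, which is not an immunoglobulin, had nearly the Ighm profile. Ikzf1 was followed by Arhgap21 (0.974), Pde4dip (0.964) and Zmynd11 (0.963), and Bach2 by Pdss2 (0.947), Pomgnt2 (0.939) and Troap (0.927). Pomgnt2 went from 16.3 ± 0.922 to 9.92 ± 2.00 CPM with the fusion in fetal liver and from 17.6 ± 1.89 to 21.6 ± 0.211 in bone marrow, as Bach2 did in direction.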

How the data were processed

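RNA of 12 cultured HSC libraries was sequenced as read pairs after a SMARTer stranded total RNA preparation, per the labels' protocols. The deposited file, made by the authors, holds CPM per gene and library. The submitters' processing notes name STAR 2.5.1a, featureCounts 1.4.6-p5, Salmon 0.8.2, edgeR, limma and GRCm38, without roles; whether counting used strand is not given in the sources used here, so overlapping genes on either strand are uncertain. In every library 100% of deposited CPM values were whole multiples of a step (tolerance 0.01 reads), which gave back whole reads and totals of 32.3 to 64.5 M. The 40757 lines included 276 repeats of a gene, which were dropped.

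Genes reaching 1 CPM in 3 or more libraries were fitted with limma 3.58.1 (R 4.3.3) on log2(CPM + 1), with a mean per group, 8 residual degrees of freedom, a mean-variance trend and Benjamini-Hochberg adjustment over 14271 genes. Two-sided exact permutation tests compared CPM of single genes. Where groups are said not to overlap, the share of all genes that also do not was not counted. Alternatives included a pseudocount of 0.1, all 29278 genes with reads, a mean of at least 5 CPM, median-of-ratios and quantile scaling, a replicate block, array weights, edgeR 4.0.16 and DESeq2 1.42.0 on recovered reads, only the 6 libraries compared, and leaving out each library. EdgeR on all genes with reads and the share of reads in processed pseudogenes (1.23% to 2.55%) as a covariate were added after seeing the data. The fitting code was tested on simulated data. Positions and exon lengths come from GENCODE M21 (GRCm38), which held 40254 of the gene IDs.

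The members and lists were chosen with earlier results of these data known. All 10 members are named; of each companion list at most 4 called genes per comparison are named, by smallest adjusted p, with Flt3, Tcf3, Rag2, Cd79a, Cd79b, Vpreb1, Igll1 and Il2rg whatever their value, and the 3 genes most like each tested member. A further gene of this rule is not reported here. Other genes named, such as Igkc, Blk and Ighj1, were chosen after their values were seen.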

Additional observations from a re-analysis of the deposited data

Results flagged for a closer look

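Limma's interaction term (adjusted over 14271 genes) asks whether the genotype effect differs between fetal liver and bone marrow. It was called for Ighm, Ets1, Mef2c and Fcrla, and for 9.19% of all genes. That was 1 of 4 tested members, 1 of 3 pre-B and B-cell receptor genes and 2 of 15 lymphoid priming regulators. Of the 11 interleukin-7 signalling genes and the 9 genes of V(D)J recombination and end joining, 0 were called. These calls are to be read against the share over all genes. Fcrla passed the filter only through ETV6-RUNX1 fetal liver, so the filter itself favoured a difference between groups. For Ighm the interaction was 2.46 on the log2 scale (adjusted p = 0.00148), from a rise in fetal liver and no call in bone marrow. For Fcrla it was 1.42 (limma adjusted p = 0.00303); edgeR and DESeq2 on the filtered genes gave no such call, and the filter at a mean of 5 CPM left it out. For Ets1 it was 1.37 (limma adjusted p = 0.0177), from 23.4 ± 3.90 to 58.6 ± 3.64 CPM in fetal liver and from 25.0 ± 8.88 to 22.6 ± 1.51 in bone marrow. For Mef2c it was 0.87 (limma adjusted p = 0.0476), from 661 ± 82.9 to 757 ± 84.9 CPM in fetal liver and from 550 ± 103 to 346 ± 82.2 in bone marrow. The number of lymphoid priming regulators with a called interaction ran from 0 (without WT bone marrow replicate 2 or WT fetal liver replicate 3) to 4 as single libraries were left out, and from 0 to 5 over all 23 alternatives, 15 of which moved it by over 1.5 times. Neither Ets1 nor Mef2c was called in the fits with a count of 0.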

How the results depend on the processing

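The Ikzf2 calls in both sources, the Ighm call in fetal liver and its interaction kept direction and call under every alternative run. So did the Ighm difference between WT sources. Ighm passed the filter mostly through fetal liver, but its ETV6-RUNX1 fetal liver libraries alone were enough. Limma on all genes with reads, without that filter, also gave the difference between WT sources (1.83, adjusted p = 0.0101). Members called in bone marrow were 1 in the reported fit, and 2 with all genes with reads (Ebf1 and Ikzf2) or with edgeR on those genes (Ighm and Ikzf2). Members called for the interaction were 1, and 3 under median-of-ratios scaling, array weights and DESeq2 (Bach2, Ighm and Ikzf2); leaving out libraries gave 1 to 2. Members called between WT sources were 1, then 2 under median-of-ratios scaling, edgeR and the pseudogene covariate, and 3 under array weights and DESeq2; leaving out libraries gave 1 to 2. Bach2 in bone marrow turned to -0.0156 under quantile normalization, and the Ikzf1 interaction to -0.235 with the pseudogene covariate. The Bach2 difference between WT sources, near 0, turned to 0.0355 under median-of-ratios scaling, 0.0637 under quantile normalization, 0.0464 with edgeR, 0.0397 with DESeq2, 0.0310 with edgeR on all genes and 0.0265 with the covariate, and ran from -0.189 to 0.0887 as libraries were left out. The cause of these turns was not tested.

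Over all genes, calls in bone marrow were 2763, 1601 with only the 6 libraries compared, and 1520 to 2924 as libraries were left out (1520 without ETV6-RUNX1 replicate 2). Interaction calls were 1311, 767 with all genes with reads, 3637 with array weights, 543 with the covariate, and 731 to 2332 as libraries were left out (731 without WT bone marrow replicate 2, 737 and 766 without WT fetal liver replicates 3 and 2, 847 without ETV6-RUNX1 fetal liver replicate 1, 2332 without WT bone marrow replicate 1). Calls between WT sources were 1591, 4401 with array weights, and 868 to 2781 as libraries were left out (868 and 2781 without WT bone marrow replicates 2 and 1, 904 without WT fetal liver replicate 3). The interaction needs all 4 groups, so it has no fit on 6 libraries. Scaling moved the median of all genes in bone marrow from 0.130 to -0.001 (median-of-ratios), and the share of calls that were higher from 74.5% to 50.6%; quantile normalization moved that share in fetal liver from 57.6% to 42.0%.

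Samples with the same replicate number did not deviate together: 7 of 18 such pairs had a correlation over 0.1, and all ran from -0.442 to 0.390. Pairs of different number ran from -0.495 to 0.656, the highest between WT bone marrow replicate 1 and WT fetal liver replicate 3. Libraries of different groups can thus deviate together without sharing a number, and what they share was not tested. With the number as a replicate block, members called for the interaction were 2, Bach2 joining Ighm (limma adjusted p = 0.0496), and other member calls did not change; lymphoid priming regulators with a called interaction went from 2 to 1. Depth limits Ikzf3, Pax5, Il7r, Rag1 and Dntt, which had at most 15 reads in a library.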
